A study of Mus musculus with 17 samples.

Results

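The insulin-like growth factor (IGF) system was examined in the aging mouse hippocampus through 10 of the 38355 genes counted. The genes were chosen by name for their role, with earlier results of these data known: the ligands Igf1 and Igf2, the receptors Igf1r, Igf2r and Insr, and the secreted binding proteins Igfbp2, Igfbp3, Igfbp4, Igfbp5 and Igfbp6. All 10 passed the filter on low counts in both comparisons. RNA sequencing of polyadenylated RNA was done on hand-dissected hippocampus of untreated wild type C57BL/6J mice. Mice of 3 months (3M, n = 5) and 24 months (24M, n = 6) were sequenced as single-end libraries, and mice of 3 months (3M, n = 3) and 29 months (29M, n = 3) as paired-end libraries, so 24M was compared with the single-end 3M mice and 29M with the paired-end ones. Library type and the step from 24M to 29M cannot be told apart. The libraries held 19144461 to 28438296 gene reads in the single-end 3M group, 9213474 to 19756411 in 24M, 10977976 to 15054972 in the paired-end 3M group and 10991389 to 13563541 in 29M.

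IGF1 and IGF2 are small secreted growth factors related to insulin. Both act through the IGF1 receptor, and IGF2 can also act through the insulin receptor. These receptors are tyrosine kinases that signal through insulin receptor substrates to the PI3K-AKT and RAS-ERK cascades. The IGF2 receptor, which is also the cation-independent mannose 6-phosphate receptor, carries IGF2 and lysosomal enzymes to lysosomes, and the binding proteins hold the ligands outside the cell and release them when proteases cut them. In the adult brain Igf2 is known from the choroid plexus and the meninges, whereas Igf1 is known from microglia and neurons.

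Before the levels, 2 features of the libraries were examined. Over genes of low count (2671 for this pair), libraries 1 and 4 of 24M differed by less than counting noise. Their noise ratio was 0.406, against at least 1.23 for the other 135 pairs of libraries. By a binomial test, 450 of 15093 genes with enough reads differed between libraries 1 and 4 at an adjusted p of at most 0.05. The mean of libraries 1 and 4 was entered as 1 sample, which left 5 samples at 24M. In the single-end 3M group, replicate 4 stood apart in markers of the striatum, with a sum of 705.9 CPM (counts scaled to library size) against 290.8 CPM in the next sample. All 11 markers of hippocampal subfields were present, the lowest at a mean of 29.4 CPM. The labels do not say more about the samples of a group than that they are separate, so p-values measure the spread between these samples.

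RefSeq promoter windows (GRCm38.p6, 300 bases around a transcript start) were found for 9 of the 10 genes, 13 windows in all; Insr had no entry. The windows of Igf1, which came nearest to a call at 24M, of Igf2 and Igfbp2, which varied together between samples, and of Igfbp4, which came nearest at 29M, are printed with matches to GGGCGG or TATAAA on either strand in capitals.
Igf1, chr10:87860861-87861160, plus strand: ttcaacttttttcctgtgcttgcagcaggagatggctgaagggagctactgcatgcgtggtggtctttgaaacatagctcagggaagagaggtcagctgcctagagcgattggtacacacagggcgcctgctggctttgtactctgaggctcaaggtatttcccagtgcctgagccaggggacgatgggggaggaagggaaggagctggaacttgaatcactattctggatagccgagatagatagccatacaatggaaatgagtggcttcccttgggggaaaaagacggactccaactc
Igf2, the most downstream of 4 windows, chr7:142657447-142657746, minus strand: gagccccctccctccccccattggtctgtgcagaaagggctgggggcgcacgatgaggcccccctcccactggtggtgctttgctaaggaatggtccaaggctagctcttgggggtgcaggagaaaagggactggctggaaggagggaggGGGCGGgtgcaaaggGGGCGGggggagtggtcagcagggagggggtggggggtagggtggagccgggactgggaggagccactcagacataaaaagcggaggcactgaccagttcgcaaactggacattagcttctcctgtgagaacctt
Igfbp2, the upstream of 2 windows, chr1:72824230-72824529, plus strand: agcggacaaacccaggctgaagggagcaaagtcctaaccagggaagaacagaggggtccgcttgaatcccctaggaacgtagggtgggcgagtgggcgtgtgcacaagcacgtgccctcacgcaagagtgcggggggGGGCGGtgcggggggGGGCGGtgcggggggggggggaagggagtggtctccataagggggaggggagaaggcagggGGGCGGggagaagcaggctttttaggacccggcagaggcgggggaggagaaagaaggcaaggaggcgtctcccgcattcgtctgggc
Igfbp4, chr11:99040994-99041293, plus strand: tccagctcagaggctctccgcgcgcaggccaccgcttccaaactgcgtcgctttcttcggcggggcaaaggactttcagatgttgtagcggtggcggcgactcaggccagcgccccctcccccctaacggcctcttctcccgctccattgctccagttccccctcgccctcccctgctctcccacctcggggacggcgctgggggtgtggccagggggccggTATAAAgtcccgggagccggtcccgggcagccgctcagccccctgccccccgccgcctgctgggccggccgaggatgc
GGGCGG, the core of a GC box, occurred 2 times in this Igf2 window and 3 times in this Igfbp2 window. It was found in 35.66% of all 32851 windows of this length. TATAAA, the TATA box core, occurred 1 time in the Igfbp4 window and was found in 13.62% of all windows. The Igf1 window held neither, and TGTTTAC, a core bound by FOXO factors that does not overlap the other motifs and was found in 3.65% of all windows, was in none of the 13 windows. The windows of the receptors Igf1r and Igf2r were the richest in CG dinucleotides among the ligands and receptors, with 48 and 34 against a median of 7 over all windows, whereas the Igf1 window held 6. These letters were matched as a description of the windows only.

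Per length of exon, Igfbp2, Igfbp5 and Igf2 were the most abundant genes of the system and Igf1 the least abundant. The length was that of all merged exons of a gene in GENCODE M21. It is not stated which annotation release the counts used, so the ranks hold for these lengths only. In the single-end 3M group the mean level was 51.7 ± 13.5 CPM per kb for Igfbp2, 46.5 ± 5.5 for Igfbp5 and 45.0 ± 12.6 for Igf2 (SD, n = 5), and the samples of these 3 genes overlapped. Igfbp4, a binding protein cut by the protease PAPP-A, followed at 22.8 ± 1.8 CPM per kb, and Igfbp6, which prefers IGF2 to IGF1, at 11.6 ± 2.3. The 3 receptors were below these 5 genes. Igf2r reached 8.01 ± 0.50 CPM per kb, Insr 5.55 ± 0.33, and Igf1r 1.88 ± 0.15. Igfbp3, the main carrier of IGFs in blood, stood at 5.17 ± 1.37 CPM per kb and overlapped Insr. Igf1 had the lowest level, 0.876 ± 0.137 CPM per kb, below every sample of Igf1r.

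The order was much the same in the other groups. Igfbp2, Igfbp5 and Igf2 held the first 3 places in all 4 groups with overlapping samples, Igfbp4 the fourth, Igfbp6 the fifth, Igf2r the sixth, Igf1r the ninth and Igf1 the last. The gap between Igf2 and Igf1 was 45.0 against 0.876 CPM per kb in the single-end 3M group and 49.9 ± 10.1 against 1.16 ± 0.13 CPM per kb in 24M. In 24M, Igfbp6, Igf2r, Igfbp3 and Insr ran into each other, at mean levels of 9.65, 7.14, 6.33 and 5.89 CPM per kb with each overlapping its neighbour. In both paired-end groups Insr and Igfbp3 were apart, at 5.63 ± 0.10 and 4.73 ± 0.25 CPM per kb in 3M and 5.69 ± 0.06 and 4.602 ± 0.34 in 29M (SD, n = 3). The exons of Igf2 share 3596 bp with the overlapping gene Gm49394, which was not counted, and 98 bp with the antisense gene Igf2os, and it is not stated whether the counting used strand.

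**Figure D1:**
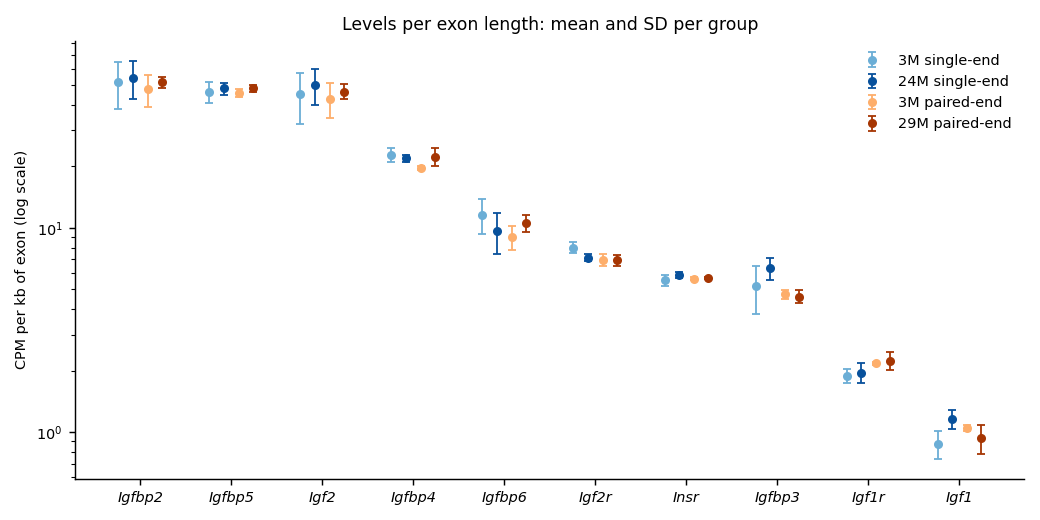
Levels of the 10 genes in CPM per kb of exon (log axis), ordered by the single-end 3M group, with points for group means and bars for 1 SD (n = 5, 5, 3 and 3 samples). Igfbp2, Igfbp5 and Igf2 lie together at the top in all groups, and Igf1 lies lowest, between 0.876 and 1.16 CPM per kb.

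To ask whether the system changes with age, each gene was tested at 24M and at 29M with edgeR's quasi-likelihood test, and a gene was called when its Benjamini-Hochberg adjusted p over all genes tested was at most 0.05 and its log2 fold change at least 0.5 in size. None of the 10 genes was called at 24M, where 1.98% of all 15683 genes tested were called, and none at 29M, where 1.45% of 15097 were called. At an unadjusted p under 0.05 there were 2 of the 10 at 24M (26.1% of all genes) and 1 at 29M (17.3% of all genes). DESeq2 called none of the 10 at either age. The values of aged and 3M samples overlapped for all 10 genes in both comparisons, whereas the groups did not overlap for 6.61% of all genes tested at 24M and 22.5% at 29M. The median log2 fold change of the 10 genes was 0.07 at 24M and 0.07 at 29M, with 7 of 10 above 0 at each age, against medians of -0.0032 and -0.0021 over all genes tested. In bulk tissue, fewer cells of a type and less RNA per cell cannot be told apart.

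**Figure D2:**
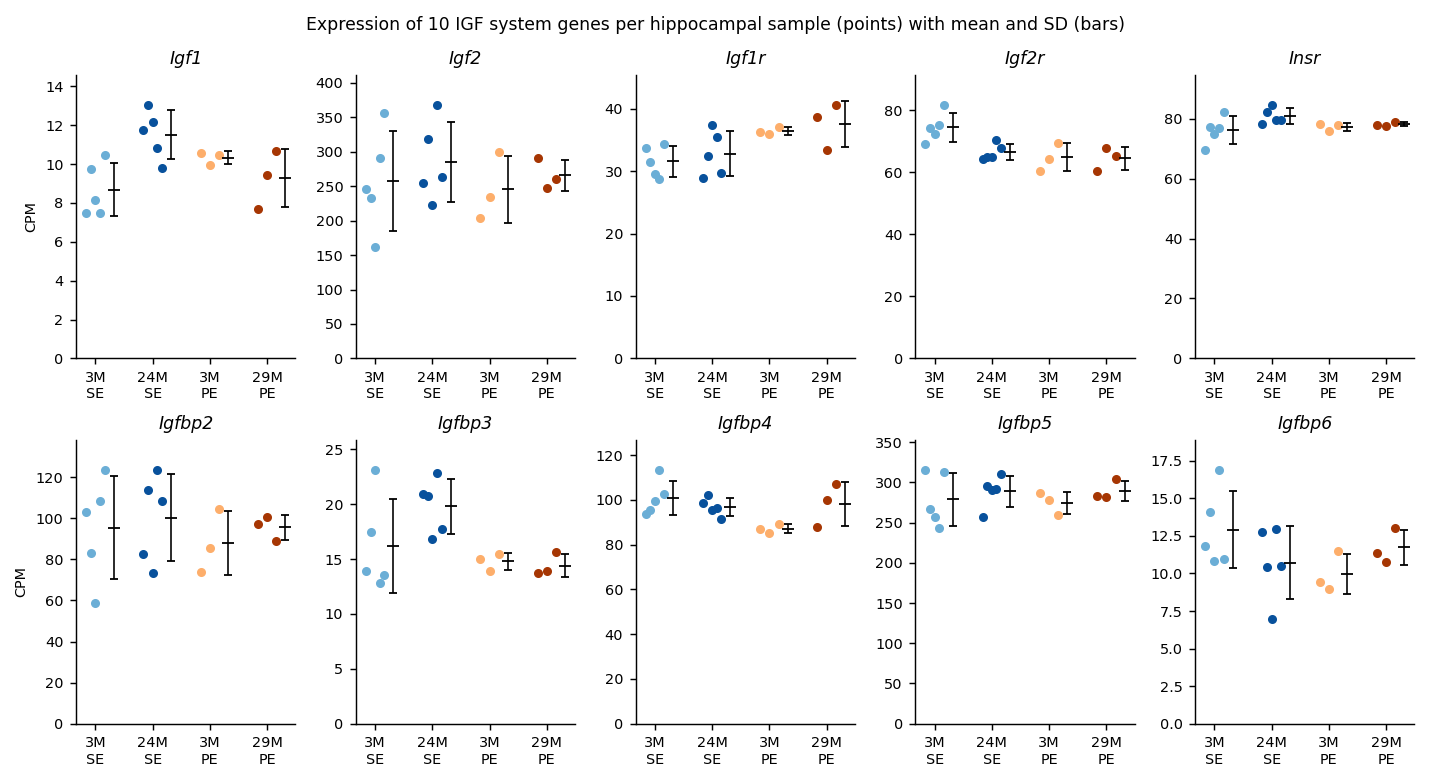
CPM of each gene in every sample (points, axes from 0; SE single-end, PE paired-end), with the group mean and SD beside them. Aged and 3M samples overlap in every panel; Igf2 and Igfbp2 spread widely in the single-end groups, while Insr stays between 69.6 and 84.6 CPM.

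Igf1 (ENSMUSG00000020053, chr10:87858265-87937042) was the only gene of the 10 that passed the adjusted p alone, at 24M. The single-end 3M samples held 7.503, 9.75, 8.17, 7.51 and 10.4 CPM. The 24M samples held 11.7 (the mean of libraries 1 and 4), 13.0, 12.2, 10.8 and 9.77 CPM. Of the 5 samples of 24M, 4 lay above every 3M sample, and replicate 6 lay within the 3M range. The mean rose from 8.68 ± 1.35 to 11.5 ± 1.3 CPM (SD, n = 5), a log2 fold change of 0.42 (SE 0.11, 95% interval 0.17 to 0.66, adjusted p = 0.0495), which is 1.33-fold and under the fold threshold. At adjusted p alone, 5.58% of all genes passed at 24M and 2.99% at 29M, where none of the 10 did. The result held without 3M replicate 5 (0.48, adjusted p = 0.0129) and without 24M library 4 (0.45, adjusted p = 0.0399). Leaving out library 1 or 4 of 24M put the other in place of their mean, so no sample was removed. With both libraries 1 and 4 left out, the result was lost. It was also lost without any 1 of the other 9 libraries, with adjusted p up to 0.130.

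At 29M the same ligand did not change beyond the spread. The paired-end 3M samples held 10.6, 9.93 and 10.5 CPM and the 29M samples 7.71, 9.42 and 10.7 CPM. Both the lowest and the highest value belonged to 29M. The log2 fold change was -0.14 (SE 0.13, 95% interval -0.41 to 0.13, adjusted p = 0.618). The 29M effect minus the 24M effect was -0.57 on the log2 scale (SE 0.19, 95% interval -0.96 to -0.17), with an unadjusted p of 0.00701 and an adjusted p of 0.392. By this edgeR test 0 of 16055 genes passed the adjusted p, 1674 genes (10.4%) had an unadjusted p under 0.05, and DESeq2 also passed 0 genes.

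Igf2 (ENSMUSG00000048583, chr7:142650766-142666816) varied more within groups than between ages. The single-end 3M samples held 246, 233, 161, 291 and 356 CPM, and the 24M samples 255, 318, 222, 368 and 264 CPM. Within the 3M group alone, the highest sample was 2.20-fold above the lowest. The log2 fold change at 24M was 0.15 (SE 0.18, 95% interval -0.23 to 0.53, adjusted p = 0.623). It ranged from 0.02 without 3M replicate 3 to 0.29 without 3M replicate 5. The paired-end 3M samples held 203, 234 and 299 CPM and the 29M samples 291, 247 and 260.5 CPM, all 3 inside the 3M range. At 29M the log2 fold change was 0.12 (SE 0.10, 95% interval -0.10 to 0.34, adjusted p = 0.595), and ranged from 0.0035 without 3M replicate 1 to 0.29 without 3M replicate 3.

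Of the receptors, Igf2r came nearest to a change and only at 24M. Its single-end 3M samples held 69.1, 74.3, 72.5, 75.2 and 81.7 CPM, and its 24M samples 64.2, 65.1, 64.9, 70.3 and 68.0 CPM. Of the 5 samples of 24M, 4 lay below all 3M samples, and replicate 5 lay above the lowest of them. The log2 fold change was -0.16 (SE 0.05, 95% interval -0.28 to -0.05), with an unadjusted p of 0.00831 and an adjusted p of 0.0789. The adjusted p ranged from 0.0376 to 0.165 over the other fits of the full comparison and from 0.0633 to 0.185 without 1 library. Igf2r passed with all 4 groups in 1 fit, which shares 1 estimate of the spread over both library types. It also passed with the libraries of 24M kept apart. There libraries 1 and 4 counted as separate samples, although they differed by less than counting noise. At 29M Igf2r held 60.5, 67.8 and 65.2 CPM against 60.5, 64.5 and 69.5 CPM in 3M, with a log2 fold change of -0.0032 (95% interval -0.14 to 0.13). The antisense gene Airn overlaps the Igf2r locus (chr17:12682406-12769664) without sharing exon bases.

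The signalling receptors stayed close to their 3M levels. Igf1r (chr7:67952827-68233668) held 28.8 to 34.3 CPM in the single-end 3M group and 29.0 to 37.4 CPM in 24M, a log2 fold change of 0.06 with a 95% interval of -0.11 to 0.24. In the paired-end libraries it held 36.3, 36.0 and 37.1 CPM in 3M and 38.7, 33.4 and 40.6 CPM in 29M, a log2 fold change of 0.05 with an interval of -0.11 to 0.21. For Insr (chr8:3122061-3279617) the interval was -0.02 to 0.20 at 24M and -0.08 to 0.12 at 29M. A change of 0.5 on the log2 scale lay outside the interval for all 3 receptors at both ages. Insr held 75.9 to 78.3 CPM in the paired-end 3M group and 77.5 to 79.0 CPM in 29M. Its pooled spread within groups, on the log2 scale, was above that of 5.94% of 14584 genes, not matched for level.

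The binding proteins were split in direction, and none passed the test. Igfbp2 (chr1:72824503-72852474) held 103, 83.3, 59.0, 108 and 123 CPM in the single-end 3M group and 82.7, 114, 73.5, 123 and 108 CPM in 24M. Like Igf2, it spread 2.09-fold within the 3M group. Its log2 fold change was 0.07 at 24M (SE 0.18, adjusted p = 0.832) and 0.12 at 29M (SE 0.09, adjusted p = 0.544). Its sign at 24M turned, to -0.06, when 3M replicate 3 was left out, and to -0.02 without 24M replicate 5. Igfbp5 (chr1:72857932-72874884), which lies next to Igfbp2 on the opposite strand, held 243 to 315 CPM in the single-end 3M group and 258 to 310 CPM in 24M. Its log2 fold change was 0.05 at 24M (95% interval -0.11 to 0.22) and 0.08 at 29M (95% interval -0.02 to 0.18).

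Igfbp3 (chr11:7206086-7213923) depended on 1 library. Its single-end 3M samples held 13.9, 17.5, 23.1, 12.8 and 13.6 CPM, and its 24M samples 20.9, 20.8, 16.8, 22.8 and 17.7 CPM. Replicate 3 of 3M was above every 24M sample, replicate 2 lay within the 24M range, and the other 3 lay below it. Its log2 fold change was 0.29 (SE 0.15, 95% interval -0.04 to 0.61, adjusted p = 0.246), and it was 0.46 with an adjusted p of 0.044 without 3M replicate 3. At 29M it held 13.7, 13.9 and 15.6 CPM against 15.01, 13.9 and 15.4 CPM in 3M, with a log2 fold change of -0.02 (95% interval -0.22 to 0.18).

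Igfbp4 (chr11:99041244-99054392) came nearest to a change at 29M. The paired-end 3M samples held 87.1, 85.2 and 89.1 CPM and the 29M samples 87.7, 100 and 107 CPM, so 2 of 3 aged samples lay above all 3M samples. Its log2 fold change was 0.18 (SE 0.06, 95% interval 0.05 to 0.31), with an unadjusted p of 0.0126 and an adjusted p of 0.154; the adjusted p was 0.0207 without the filter on low counts. At 24M the log2 fold change was -0.06 (95% interval -0.18 to 0.06), from 93.5, 95.3, 99.4, 113 and 103 CPM in 3M to 98.5, 102, 95.3, 96.3 and 91.4 CPM in 24M. The difference between the ages was 0.23 (SE 0.09, unadjusted p = 0.0230, adjusted p = 0.406).

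Igfbp6 (chr15:102144362-102149511) had opposite signs at the 2 ages. It held 11.8, 14.1, 10.8, 16.9 and 10.9 CPM in the single-end 3M group and 12.8, 10.4, 6.97, 13.0 and 10.5 CPM in 24M, a log2 fold change of -0.27 (SE 0.17, adjusted p = 0.330). This fell to -0.15 without 3M replicate 4, the sample high in striatal markers, and to -0.14 without 24M replicate 3. Over all fits without 1 library it ranged from -0.36 to -0.14. In the paired-end libraries it held 9.46, 8.998 and 11.5 CPM in 3M and 11.4, 10.8 and 13.0 CPM in 29M, a log2 fold change of 0.26 (SE 0.12, adjusted p = 0.298). The difference of 0.51 between the ages (95% interval -0.03 to 1.05) had an adjusted p of 0.499, so the ages were not shown to differ.

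**Figure D3:**
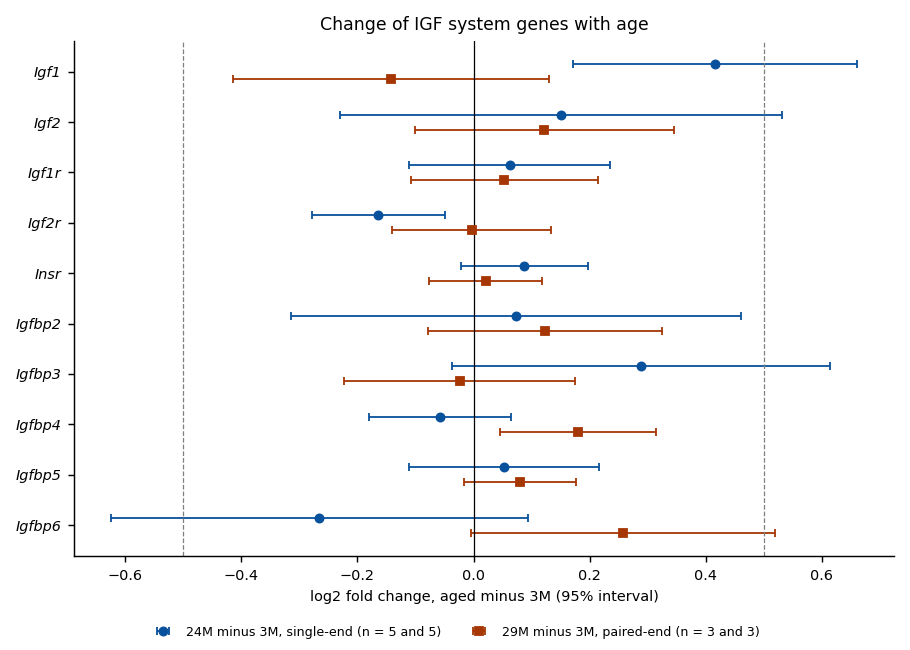
Log2 fold change of each gene, aged minus 3M, with its 95% interval, at 24M (circles) and 29M (squares); dashed lines mark the threshold of 0.5. The interval lies wholly above 0 for Igf1 at 24M and Igfbp4 at 29M and wholly below 0 for Igf2r at 24M, and no estimate reaches the threshold.

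The genes differed in how widely they varied between samples of one age. The pooled SD within groups, on the log2 scale, was 0.32 for Igf2, above 89.3% of 14584 genes, and that of Igfbp2 was above 89.4%. Igfbp6 and Igfbp3 were above 85% and 79.9% of genes, whereas Igfbp4 was above 30.2% and Igf2r above 20%. The genes ranked were not matched for level, so these ranks do not separate counting noise from differences between samples. Igf2 and Igfbp2 rose and fell in the same samples: over 16 samples, each taken as its log2 deviation from its own group mean, Pearson's r was 0.93, and Igfbp2 ranked ninth among 14583 genes by likeness to Igf2. The 3 genes most like Igf2 were Slc13a4 (r = 0.96), a sulfate transporter that was also on the list of meningeal markers, Tns1 (r = 0.95) and Sfrp1 (r = 0.95), which encodes a secreted Wnt inhibitor. In the permutation test of marker lists below, Igf2 did not pass with the meningeal list as a whole (r = 0.250, adjusted p = 0.900). The genes most like Igfbp2 were Hemk1 (r = 0.95), Gas6 (r = 0.95) and Msx1 (r = 0.95). The likenesses between single genes are descriptions over samples that share library types, with no test.

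Marker lists were set against each gene after its values were seen. They covered choroid plexus, meninges, endothelium, pericytes and smooth muscle, homeostatic microglia, interneurons and astrocytes. This gave 70 relations over the 16 samples, with 100000 permutations within groups and Benjamini-Hochberg adjustment over all 70. Lists of neurons, oligodendrocytes, hippocampal subfields, striatum and hypothalamus were not set against the genes, so relations with those were not tested. Of the 70 relations, 4 passed. The share of all genes that would pass with the same lists was not tested, so this count is not shown to be particular to these genes. Igf2 followed the choroid plexus markers (r = 0.885, rho = 0.809, permutation p = 0.00035, adjusted p = 0.0123), and so did Igfbp2 (r = 0.888, rho = 0.888, permutation p = 0.00019, adjusted p = 0.0123). The choroid plexus is the secretory epithelium of the ventricles, which border the hippocampus. Without the 2 samples farthest out, 3M replicates 3 and 5, r was 0.745 for Igf2 and 0.780 for Igfbp2. Within the single-end libraries r was 0.907 and 0.875, and within the paired-end libraries 0.753 and 0.982. All 12 markers were present, the lowest at a mean of 24.5 CPM, and none was called at either age.

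The summed choroid plexus markers held 5184, 5031, 2098, 8063 and 8726 CPM in the single-end 3M samples. Replicate 3, with the lowest sum, was also the lowest in Igf2 (161 CPM) and Igfbp2 (59.0 CPM), and replicate 5, with the highest sum, was the highest in both (356 and 123 CPM). The sum ranged from 4785 to 7981 CPM in 24M, from 3713 to 6761 CPM in the paired-end 3M group and from 4356 to 6651 CPM in 29M. The part of choroid plexus tissue in the values of Igf2 and Igfbp2 was not tested.

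**Figure D4:**
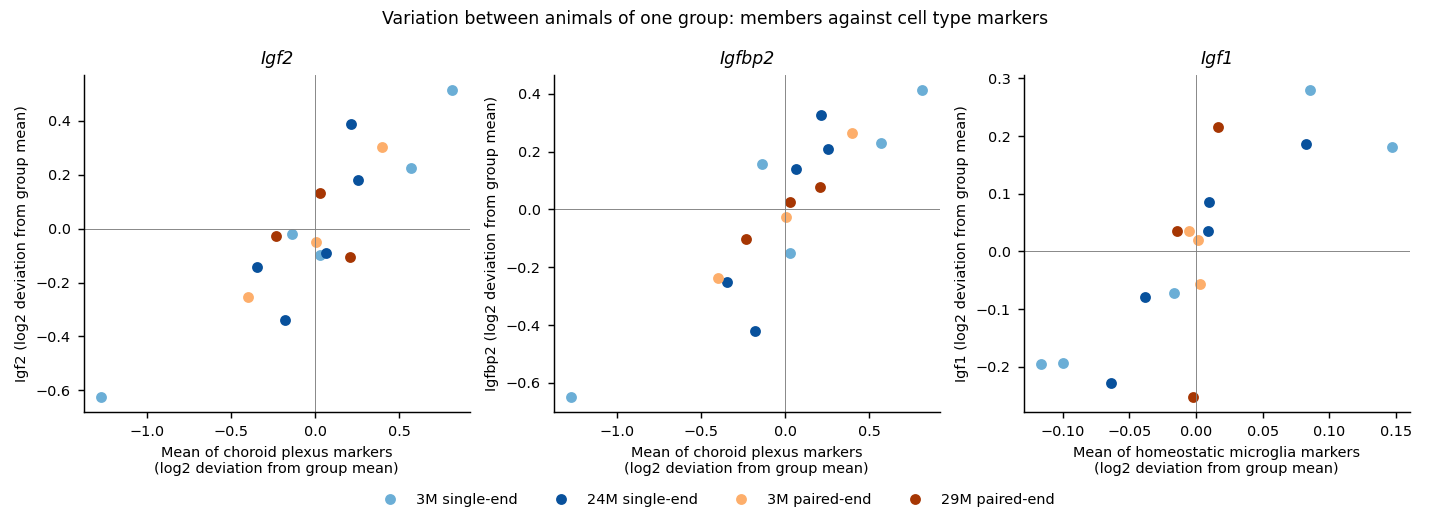
Log2 deviation from the group mean of Igf2 and Igfbp2 against choroid plexus markers, and of Igf1 against homeostatic microglia markers, one point per sample (16 samples, 4 groups by colour). Igf2 and Igfbp2 rise with the choroid plexus markers (r = 0.885 and 0.888), with 3M replicate 3 at the lower left, and Igf1 rises with the microglia markers (r = 0.799).

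Igf1 followed the markers of homeostatic microglia (r = 0.799, rho = 0.85, permutation p = 0.00131, adjusted p = 0.0229). Without 3M replicates 1 and 2, the farthest out, r was 0.806. Pearson's r was 0.924 within the single-end libraries and 0.428 within the paired-end libraries, a difference that was not tested. The mean of the markers varied little in the paired-end samples, with log2 deviations from -0.014 to 0.016. In the single-end samples these ran from -0.116 to 0.147. The aged groups lay above their 3M groups in these markers: their sum was 427 to 490 CPM in the single-end 3M group and 527 to 561 CPM in 24M, and 436 to 443 CPM in the paired-end 3M group and 547 to 563 CPM in 29M. The sums were higher at both ages. Igf1 passed the adjusted p alone at 24M and did not at 29M. Its effects at 24M and 29M were not shown to differ by the edgeR test of the difference (adjusted p = 0.392). Of the 12 markers, 6 passed the adjusted p as higher at 24M and 7 at 29M; their part in the Igf1 values was not tested. Of 13 genes known from disease-associated microglia, a list not among those set against the 10 genes, 6 were called higher at 24M (Itgax, Clec7a, Cst7, Ccl6, Trem2 and Tyrobp). At 29M 4 of 12 tested were called higher (Itgax, Clec7a, Trem2 and Tyrobp). Clec7a, a receptor for fungal glucans, rose by 2.53 on the log2 scale at 24M (adjusted p = 0.00031) and by 3.21 at 29M (adjusted p = 4.42e-05), and Trem2, a lipid-sensing receptor of microglia, rose by 0.64 and 0.84. The part of this list in the Igf1 values was not tested either. The genes most like Igf1 over the 16 samples were Rbbp6 (r = 0.86), Ythdf2 (r = 0.86) and Nap1l2 (r = 0.84).

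Igfbp3 followed the meningeal markers (r = 0.636, rho = 0.762, permutation p = 0.00093, adjusted p = 0.0217), with r = 0.690 without 29M replicate 2 and 24M replicate 3. Within the single-end libraries r was 0.691 and within the paired-end libraries 0.577. Of the 14 meningeal markers, 2 were called higher at 24M, Lum (log2 fold change 0.85, adjusted p = 0.0306) and Ogn (0.96, adjusted p = 0.0226), both small proteoglycans of connective tissue, and none at 29M. Lum lost its call without 3M replicate 1 or 4 or 24M replicate 2, 5 or 6 (adjusted p up to 0.0884), and Ogn without 3M replicate 1 or 24M replicate 2 (up to 0.0687). The list was mixed at 24M, with 11 of 14 above 0 and the collagen genes Col3a1 and Col1a1 at -0.80 and -0.42 (adjusted p = 0.107 and 0.239). The sum of these markers was 199.5 to 292 CPM in the single-end 3M group and 191 to 427 CPM in 24M, and its part in Igfbp3 was not tested. No other gene of the 10 passed with any of the 7 lists. By Pearson's r, Igfbp6 with interneuron markers came next (r = 0.737, permutation p = 0.0125, adjusted p = 0.175). By rank correlation, the next was Igf2r with choroid plexus markers (rho = 0.718, permutation p = 0.0085, adjusted p = 0.119).

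Beyond the 10 genes, Igfbpl1 was the one gene of the wider IGF axis that was called lower at both ages. It encodes a secreted protein related to the IGF-binding proteins, known from young neurons. It held 4.85, 5.03, 2.90, 6.75 and 6.59 CPM in the single-end 3M samples and 1.24, 0.675, 0.713, 1.79 and 1.91 CPM in 24M. In the paired-end libraries it held 2.95, 6.60 and 4.13 CPM in 3M and 0.685, 1.07 and 0.369 CPM in 29M. All aged samples lay below all 3M samples in both comparisons. The log2 fold change was -2.07 (SE 0.30, adjusted p = 0.00304) at 24M and -2.76 (SE 0.39, adjusted p = 0.00181) at 29M, which held in every fit that left out 1 library.

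Of the 17 genes on that list, 10 were tested at 24M and 8 at 29M, and Igfbpl1 was the single call at each age. Ins1, Ins2, Insrr, Igfbp1, Igfals, H19 and Igf2bp1 were below the filter in both comparisons. Pappa, the protease that cuts IGFBP4, had log2 fold changes of 0.31 and 0.30 (adjusted p = 0.290 and 0.627). Its inhibitors Stc1 and Stc2 stood at -0.26 and -0.30 at 24M and -0.43 and -0.07 at 29M, none past the test. The antisense gene Igf2os was at 0.62 at 24M (adjusted p = 0.187). The median over the list was -0.20 at 24M and -0.01 at 29M.

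Among the 17 receptor adaptors and brakes, 1 gene was called at each age. Irs4, an insulin receptor substrate, fell at 24M by 1.86 on the log2 scale (SE 0.45, adjusted p = 0.0328), from 0.899, 2.002, 2.73, 3.88 and 2.10 CPM in 3M to 0.962, 0.525, 0.102, 1.01 and 0.637 CPM in 24M. The highest value was in 3M replicate 4, the sample high in striatal markers. The call was lost without that sample, without 3M replicate 3 and without 24M replicate 2, 3 or 6, with adjusted p from 0.0189 to 0.0892 over fits that left out 1 library, and at 29M the gene was below the filter. Socs3, which blocks cytokine and insulin receptor signalling, rose at 29M by 0.999 on the log2 scale (SE 0.25, adjusted p = 0.0452), from 1.13, 1.27 and 1.47 CPM in 3M to 2.31, 3.11 and 2.36 CPM in 29M. It lost its call without any 1 of the 6 samples (adjusted p 0.0895 to 0.133). At 24M the adjusted p alone was passed by Irs1 (-0.27, adjusted p = 0.0456) and Shc3 (-0.37, adjusted p = 0.0321), both lower and under the fold threshold; Shc3 stood at -0.25 at 29M (adjusted p = 0.0737).

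Further down the pathway no gene was called. Of 27 genes of the PI3K-AKT-mTOR-FOXO arm, Akt2, the AKT kinase best known from insulin action, was lower at 24M by adjusted p alone (log2 fold change -0.36, adjusted p = 0.0196) and stood at -0.13 at 29M (adjusted p = 0.233). The regulatory PI3K subunit Pik3r3 had the smallest p of the arm at 29M (-0.20, adjusted p = 0.0512). Of 13 genes of the RAS-ERK arm, Mapk3, which encodes ERK1, was higher at 29M by adjusted p alone (0.16, adjusted p = 0.0382). Of 15 known FOXO targets, among them Insr itself, none passed even the adjusted p; Cdkn1a, a cell cycle inhibitor, stood at -0.64 at 24M (adjusted p = 0.0847) with all aged samples below 3M, and at 0.02 at 29M. Of 11 genes of the mannose 6-phosphate route that Igf2r serves, Vps29, a subunit of the retromer that recycles the receptor, was higher at 24M by adjusted p alone (0.24, adjusted p = 0.0302) and stood at -0.0049 at 29M. Over these 4 lists the medians ran from -0.03 to 0.08 at 24M, and at 29M from -0.01 to 0.02.

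**Figure D5:**
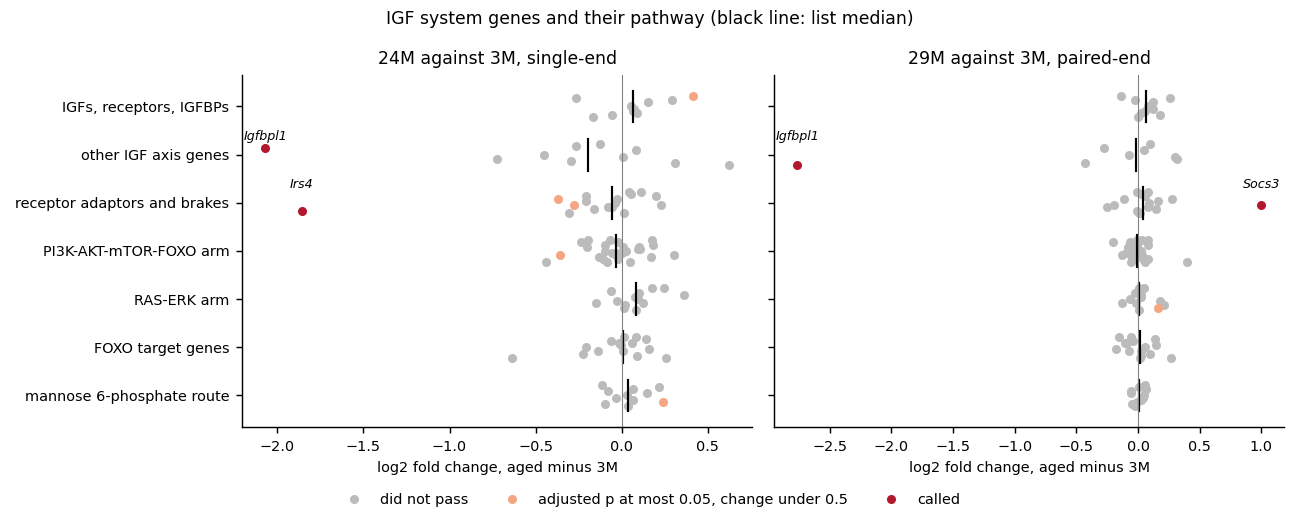
Log2 fold change, aged minus 3M, of each tested gene of the IGF system and 6 pathway lists at 24M (left) and 29M (right), with list medians as black lines; red points were called and orange points passed the adjusted p under the fold threshold. The calls are Igfbpl1 at both ages, Irs4 at 24M and Socs3 at 29M, and the list medians lie between -0.20 and 0.08.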

How the data were processed

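Polyadenylated RNA of hippocampus was sequenced from TruSeq libraries. The deposited files hold raw read counts per gene, made by the authors with STAR 2.3.0 and HTSeq on GRCm38.p2 per the labels; no source at hand gives the strand setting of the counting. The summary lines of each file (23.9 to 40.4% of a library) were kept out of library sizes. Counts were fitted with edgeR 4.0.16 (R 4.3.3): TMM, filterByExpr, quasi-likelihood F test, Benjamini-Hochberg over all genes tested, each aged group with its own 3M group, and all 4 groups in 1 fit for the difference between ages. Calls used the thresholds of the study, 0.05 for the adjusted p and 0.5 for the size of the log2 fold change. DESeq2 1.42.0 and other settings were alternatives. The fits were tested on simulated counts. CPM use TMM library sizes, and exon lengths come from GENCODE M21. The counts set the precision, and intervals cover the spread between samples. The 10 genes and all lists were chosen with earlier results of these data known. From the other lists, genes were named where called at either age, otherwise the one with the smallest p in each comparison. Irs1, Shc3, Pappa, Stc1, Stc2, Igf2os, Col1a1 and Col3a1 were named after their values were seen. Some genes that the naming rule covers are not reported here.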

Additional observations from a re-analysis of the deposited data

Results flagged for a closer look

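In groups of 4 to 10 samples, 78 groups of values were examined for a sample far from the rest of its group; 2 stood out, and chance would give about 3.9. Socs3 in 24M was highest in replicate 2, at 3.07 CPM against 2.23 CPM in the next sample (gap over range 0.774). The other was in the single-end 3M group, where replicate 4 held 705.9 CPM of summed striatum markers against 290.8 CPM in the next sample (gap over range 0.87). Without that sample the log2 fold change of Igf1 at 24M was 0.37 (adjusted p = 0.0953). No value of the 10 genes stood apart in this way.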

How the results depend on the processing

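At 24M, 1 of the 10 genes (Igf1) passed the adjusted p. The number was 2 (Igf1 and Igf2r) with all 4 groups in 1 fit and with the 24M libraries kept apart. Kept apart, libraries 1 and 4 counted as separate samples although they differed by less than counting noise. The number was 0 with DESeq2 size factors and with 24M replicates 1 and 4 both left out. It was 0 to 1 over fits without 1 library, and 1 gene was called higher with no fold change threshold. Over all genes, 210 were higher and 100 lower; these became 345 and 173 with 4 groups in 1 fit, 112 and 51 without the 24M pair, 504 and 371 with no fold change threshold, and 91 to 394 and 28 to 174 without 1 library. At 29M, 202 and 17 became 368 and 73 without the filter (where 1 of the 10, Igfbp4, passed), 83 and 3 with 4 groups, 351 and 100 with no fold change threshold, and 113 to 207 and 7 to 27 without 1 library. The difference between ages passed in 0 to 92 genes without 1 library, 92 without single-end 3M replicate 5. The causes were not tested.

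Among fits without 1 library the sign turned for Igfbp2 at 24M (range -0.0611 to 0.176), and at 29M for Igf1r (-0.0108 to 0.129), Igf2r (-0.0507 to 0.0471) and Igfbp3 (-0.0948 to 0.0117). Of 190 such and other values at 24M 173 kept their direction and side of the threshold, as did 113 of 120 at 29M and 46 of 46 for the difference. Replicate numbers did not pair the samples (same-number r -0.175 to 0.0478 at 24M and -0.069 to 0.0965 at 29M; 1 of 8 samples correlated best with its own number). With the number as a replicate block, none of the 10 passed: 0 at 24M, where the block needed the 24M libraries kept apart (2 passed apart without it), and 0 at 29M. With 3 to 5 samples a group, wide intervals limit what can be seen: at 24M those of Igf1, Igf2, Igfbp3 and Igfbp6, and at 29M that of Igfbp6, reach past the fold threshold.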
